A study of Sus scrofa with 24 samples.

Results

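Heat shock proteins and the DnaJ co-chaperones that work with them were followed in peripheral blood mononuclear cells of pigs on 6 diets. The members were all probe sets of the Affymetrix porcine array whose gene symbol in the platform's annotation begins with HSP or DNAJ. There were 75 of them, out of 24123 probe sets on the array, and they stood for 46 of the 6765 genes that the annotation names. Where a gene has several probe sets they are numbered by their mean intensity over all arrays, set 1 being the brightest. Of the 75, 67 probe sets for 42 genes had a mean log2 intensity over the 24 arrays above the floor of 3.57, below which the lowest 25% of probe sets lay, and were tested. The only probe sets of HSPB8, HSPB3, HSPA12A and DNAJC6 lay under the floor, with group means between 2.20 and 3.20, as did 1 probe set each of HSPB6, HSPA4, HSPA8 and HSPA13, genes that had others above it.

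Each of the 24 arrays held the RNA of 1 animal after 4 months on its diet, and each diet had 4 animals, 2 female and 2 male. AD-GE animals ate an atherogenic diet with grape extract at 1 g per 70 kg body weight. AD-GE-RES animals ate the atherogenic diet with a grape extract at the same dose that also supplied resveratrol at 18 mg per 70 kg. AD-RES animals ate the atherogenic diet with resveratrol alone at 18 mg per 70 kg, and AD animals ate the atherogenic diet with no addition. In all 4 of these groups cholic acid made up 1% of the diet, coconut oil 10% and beef tallow 5.5%. CT-GE-RES animals ate standard chow with the resveratrol-containing grape extract, and CT animals ate standard chow alone. The mononuclear cells were separated from heparinised blood by density gradient, so every value is a mean over a mixture of cells, in which fewer cells of a type and less RNA per cell cannot be told apart.

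Chaperones of the HSP70 family bind exposed hydrophobic stretches of unfolded proteins and release them in a cycle driven by ATP. DnaJ proteins deliver the clients and start ATP hydrolysis through their J domain, nucleotide exchange factors such as the HSP110 proteins reset the cycle, and HSP90 completes the folding of selected clients, kinases and steroid receptors among them. The chaperonin HSPD1 and its lid HSPE1 fold proteins inside mitochondria, and small heat shock proteins hold aggregation-prone proteins. The stress-inducible members of the cytosol are induced by heat shock factor, and those of the endoplasmic reticulum by the unfolded protein response. Leukocytes are known to use both, the first in heat and fever and the second under a high secretory load, as in plasma cells.

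Array medians lay between 38.6 and 41.2 on the deposited linear scale. The ratio of 3' to 5' signal of the control transcripts gapdh, actin and ef1a, a sign of RNA quality, lay between 1.37 and 4.39 on the log2 scale. Its mean was 2.46 ± 0.82 for AD-GE, 2.69 ± 1.24 for AD-GE-RES, 1.92 ± 0.23 for AD-RES, 2.19 ± 0.87 for AD, 2.20 ± 0.89 for CT-GE-RES and 3.15 ± 1.13 for CT (SD, n = 4). The highest ratio belonged to CT animal 4, whose array also had the lowest mean correlation with the others, 0.96. All the listed markers that were on the array passed the floor, so none was at 0: 11 of monocytes, 9 of T cells, 4 of B cells and 3 of NK cells, the labelled cells, and 8 of platelets, 5 of erythroid cells and 7 of neutrophils. The mean log2 level of the lists over the arrays ran from 7.41 to 9.29 for monocytes, 8.16 to 10.0 for T cells, 8.40 to 9.86 for B cells, 7.95 to 9.02 for NK cells, 5.71 to 8.90 for platelets, 7.25 to 10.2 for erythroid cells and 5.26 to 7.90 for neutrophils.

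No member passed the threshold of adjusted p under 0.05 in any of the 5 diet comparisons (limma, Benjamini-Hochberg over the 17999 probe sets tested), and neither did any other probe set (0% called in each). The lowest adjusted p of a member was 0.520 in AD-GE against AD, 1.00 in AD-GE-RES against AD, 0.980 in AD-RES against AD, 0.757 in AD against CT and 0.700 in CT-GE-RES against CT. In a test of any difference among the 6 groups the lowest was 0.302, with 10 members at an unadjusted p under 0.05, beside 9.16% of all. Weighting the arrays by their noise ended this: 92 probe sets (0.511%) passed that test, 4 of them members, HSPA6, DNAJB4, DNAJA4 and DNAJB14. It passed for 177 probe sets (0.983%) in females alone, HSPA2 among them, and for 126 (0.7%) in males alone, HSP70.2 and HSPA6 among them. The 95% intervals of the differences lay within 1 log2 unit of 0 for 62 of the 67 members in AD-GE against AD, 65 in AD-GE-RES against AD, 63 in AD-RES against AD, 59 in AD against CT and 65 in CT-GE-RES against CT. The members that had the smallest unadjusted p-values are described below by role, as values that did not pass the test. Where a p is called unadjusted, no correction for the number of probe sets was made.

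At an unadjusted p under 0.05 stood 7 of the 67 members in AD-GE against AD, beside 6.09% of all probe sets tested. The other counts were 2 members in AD-GE-RES against AD beside 2.4% of all, 4 in AD-RES against AD beside 4.45%, and 6 in CT-GE-RES against CT beside 6.8%. In AD against CT there were 10 members, 14.9% of them, beside 6.38% of all, 7 higher in AD and 3 lower. The median size of a member's difference, without its sign, was 0.125 log2 units in AD-GE against AD, 0.091 in AD-GE-RES against AD, 0.143 in AD-RES against AD, 0.186 in AD against CT and 0.121 in CT-GE-RES against CT. Over all probe sets the same medians were 0.115, 0.103, 0.112, 0.125 and 0.132, in the same order of comparisons. The differences of the members lay on both sides of 0: 32 of 67 were above 0 in AD-GE against AD (all probe sets, 51.4%), 44 in AD-GE-RES against AD (52.4%), 39 in AD-RES against AD (49.4%), 33 in AD against CT (50.4%) and 48 in CT-GE-RES against CT (52.3%). The values of the 2 groups did not overlap for 2 members in AD-GE against AD (DNAJA4 and DNAJB14; 4.72% of all probe sets), 0 in AD-GE-RES against AD (1.26%), 1 in AD-RES against AD (HSPA4; 2.81%), 2 in AD against CT (HSPA4 and DNAJC9; 2.74%) and 3 in CT-GE-RES against CT (DNAJA1, DNAJA4 and DNAJB11; 4.03%). The 4 comparisons with AD in them share the AD animals, and AD against CT and CT-GE-RES against CT share the CT animals.

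**Figure D1:**
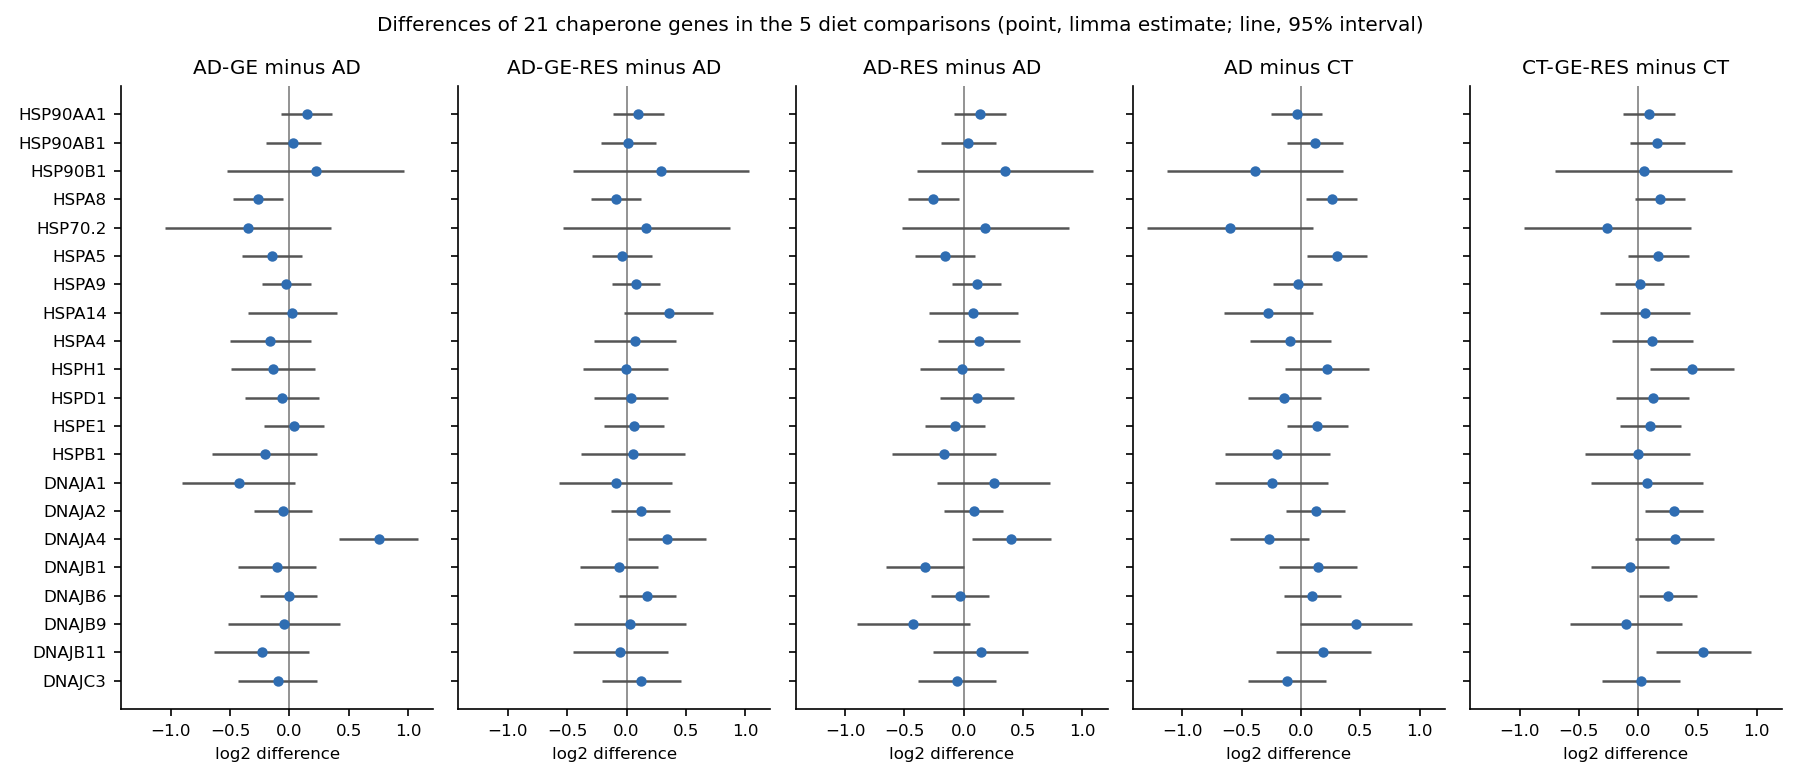
Log2 differences of 21 chaperone genes, 1 probe set each, in the 5 diet comparisons, as limma estimates (points) with 95% intervals (lines); the vertical line marks 0. Most intervals span 0, DNAJA4 in AD-GE minus AD stands at 0.75, and no gene passed the adjusted threshold.

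The brightest probe sets of the cytosolic HSP90 proteins had narrow ranges, and other sets of HSP90AA1 had wider ones. HSP90AB1, the constitutive cytosolic HSP90, averaged 12.36 ± 0.14 for AD-GE, 12.34 ± 0.13 for AD-GE-RES, 12.36 ± 0.11 for AD-RES, 12.33 ± 0.16 for AD, 12.37 ± 0.05 for CT-GE-RES and 12.21 ± 0.21 for CT (log2 intensity, SD, n = 4, as for the group means that follow). HSP90AA1, the inducible cytosolic form, averaged between 11.83 ± 0.16 in AD and 11.98 ± 0.09 in AD-GE on its probe set 1. Set 1 of HSP90AA1 had a 1.38-fold range over the 24 arrays. Set 3 of the gene had a 3.37-fold range, with 9.61 ± 0.59 for AD-GE against 8.95 ± 0.51 for AD (difference 0.65, SE 0.36, unadjusted p = 0.080). On set 5 the 16 animals on the atherogenic diet had a median of 7.33, against 6.96 in the 8 on chow, and 11 of the 16 lay above all 8. The difference there was 0.33 in AD against CT (SE 0.22, unadjusted p = 0.16). Counts of animals outside the chow range, here and below, pool 4 diets and were not tested. They were not made over all probe sets, so how common such counts are is not known. Among other members, HSPA4 on set 2 had 1 of 16 above and 13 below, and HSPB2 8 above and 1 below. HSP90B1 on set 1 had 4 above and 8 below, DNAJA3 4 above and 7 below, and HSPD1 0 above and 0 below. HSP90B1, the HSP90 of the endoplasmic reticulum, was more variable within the groups on set 1, with 10.26 ± 0.80 for AD-GE, 10.33 ± 0.61 for AD-GE-RES, 10.39 ± 0.65 for AD-RES and 10.04 ± 0.54 for AD, against 10.47 ± 0.24 for CT-GE-RES and 10.42 ± 0.09 for CT. Of the 8 tested probe sets of the 3 HSP90 genes, 8 had a positive difference in AD-GE-RES against AD, between 0.01 and 0.29. In AD-RES against AD 8 did, between 0.03 and 0.36, and none of these had an unadjusted p under 0.05. The signs are not independent, as 5 sets belong to HSP90AA1 and 2 to HSP90B1, and both comparisons use the same AD animals.

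HSPA8, the constitutive cytosolic HSP70 that also uncoats clathrin vesicles, is described by set 1. It had 11.25, 11.41, 11.48 and 11.57 in the AD-GE animals, 11.70, 11.63, 11.49 and 11.58 in AD-GE-RES, 11.47, 11.42, 11.44 and 11.41 in AD-RES, 11.46, 11.88, 11.75 and 11.67 in AD, 11.82, 11.65, 11.58 and 11.41 in CT-GE-RES, and 11.53, 11.49, 11.30 and 11.41 in CT. Of the 4 AD values, 3 lay above every CT value, and the other lay among them. The difference was 0.26 in AD against CT (SE 0.10, unadjusted p = 0.020). It was -0.26 in AD-GE against AD (SE 0.10, unadjusted p = 0.018) and -0.26 in AD-RES against AD (SE 0.10, unadjusted p = 0.020), comparisons that use the same 4 AD animals. Set 2, a dim one, was among the 5 members with the lowest p in CT-GE-RES against CT, with 4.39 ± 0.13 in CT-GE-RES and 4.69 ± 0.13 in CT (difference -0.29, SE 0.12, unadjusted p = 0.030). On set 1 the same difference was 0.18, so these sets of HSPA8 disagree in sign.

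HSPA5, or BiP, the HSP70 of the endoplasmic reticulum and the classical target of the unfolded protein response, averaged 11.60 ± 0.25 for AD-GE, 11.70 ± 0.09 for AD-GE-RES, 11.58 ± 0.13 for AD-RES, 11.74 ± 0.17 for AD, 11.61 ± 0.12 for CT-GE-RES and 11.44 ± 0.18 for CT. In single animals it was 11.52, 11.70, 11.87 and 11.88 in AD, against 11.22, 11.62, 11.37 and 11.56 in CT. The lowest AD animal overlapped with the CT animals, and the difference was 0.30 (SE 0.12, unadjusted p = 0.022). HSPA13, an HSP70-like ATPase of the microsomes, averaged 8.21 ± 0.19 in AD animals and 7.82 ± 0.19 in CT animals, with a difference of 0.38 (SE 0.15, unadjusted p = 0.018). HSPA9, the HSP70 of mitochondria, had 3 probe sets that did not move alike in AD against CT. Set 1 gave -0.03 (SE 0.10), and set 2 gave 0.37 (SE 0.15, unadjusted p = 0.024).

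HSPA6, an HSP70 that is strictly stress-inducible in human cells, was lowest in AD-GE. It had 6.86, 6.71, 6.75 and 6.23 in AD-GE, 7.11, 7.70, 6.72 and 6.98 in AD-GE-RES, 7.33, 7.16, 7.36 and 7.33 in AD-RES, 7.10, 7.38, 6.65 and 6.95 in AD, 7.20, 7.35, 7.77 and 7.70 in CT-GE-RES, and 7.41, 7.55, 7.66 and 7.28 in CT. In AD 3 of 4 animals lay below every CT animal, and the difference was -0.45 (SE 0.19, unadjusted p = 0.023). Over all 16 animals on the atherogenic diet the lowest, median and highest were 6.23, 7.04 and 7.70, against 7.20, 7.48 and 7.77 in the 8 animals on chow. Of the 16, 11 lay below all 8. The AD-RES animal at 7.16 lay below the chow range, and the other AD-RES animals, at 7.33 to 7.36, lay in its lower part. In the test of any difference among the groups HSPA6 had, with DNAJB4, the lowest adjusted p of the members, 0.302.

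HSPA2, an HSP70 enriched in testis, was lower in AD-GE females than in AD females. The AD-GE animals had 5.57 and 5.81 (female) and 6.10 and 5.88 (male), against 7.13 and 7.04 (female) and 6.34 and 5.54 (male) in AD. The female values did not overlap and the male values did. The difference over both sexes was -0.68 (SE 0.24, unadjusted p = 0.010), with -1.40 in females (SE 0.25, adjusted p = 0.113) and 0.05 in males, and the difference between the sexes did not pass the threshold (the lowest adjusted p of any member for it was 0.984). Monocyte markers moved in the same comparison: 11 of 11 were lower in AD-GE, 4 with an unadjusted p under 0.05. The centred mean of that list ran from -0.71 to -0.11 in the AD-GE animals and from 0.21 to 0.59 in the AD animals, with no overlap. With the means of the cell lists of monocytes, T cells, B cells, platelets and erythroid cells as covariates, called the cell list means below, the HSPA2 difference was -0.08.

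HSP70.2 is the platform's symbol for the stress-inducible HSP70 gene pair that RefSeq lists under HSPA1A and HSPA1B. The copies are near-identical, so its signal could not be assigned to 1 of them. On set 1 the AD-GE females had 8.72 and 8.98 and the males 7.62 and 8.06, AD-GE-RES females 9.24 and 9.07 and males 8.28 and 8.85, AD-RES females 8.86 and 8.98 and males 8.86 and 8.80, AD females 8.62 and 9.57 and males 8.57 and 8.01, CT-GE-RES females 9.31 and 9.43 and males 8.64 and 8.74, and CT females 8.47 and 8.84 and males 9.85 and 10.00. The CT males were the highest of the 24 animals. In all 5 other groups both females lay above both males, in AD-RES by less than the second decimal shows. After DNAJB6, with 13.3-fold, this was the member with the widest range over the animals, 5.21-fold, on a scale where the median member had an SD of 0.241 and the median probe set 0.230.

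The difference between AD and CT was not the same in the sexes for this probe set. It was 0.44 in females (SE 0.27, adjusted p = 0.883) and -1.64 in males (SE 0.27, adjusted p = 0.0142, 242 probe sets or 1.34% called). The difference between them was 2.08 log2 units (95% interval 1.27 to 2.89, adjusted p = 0.0471). This was the only member among the 21 probe sets (0.117%) that passed in that test. In CT-GE-RES against CT the values were 0.71 in females (adjusted p = 0.984) and -1.23 in males (adjusted p = 0.0476, 122 probe sets or 0.678% called), and their difference was 1.95 (adjusted p = 0.0416), again as the only member, of 52 probe sets called in all (0.289%). Both rest on the same CT animals, 2 in each sex.

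The other probe sets of HSP70.2 gave smaller values that did not pass. On set 2 the AD females had 7.20 and 8.36 and the AD males 7.66 and 6.93, against 7.62 and 7.52 in CT females and 8.27 and 8.45 in CT males. Its difference between the sexes was 1.27 in AD against CT (adjusted p = 0.176). On set 3 AD had 7.07 and 7.35 in females and 7.67 and 7.56 in males, against 7.15 and 7.64 in CT females and 7.77 and 9.20 in CT males, and the difference between the sexes was 0.68 (adjusted p = 0.513). The CT males were the highest pair on the first of these sets, and 1 CT male stood alone on the second.

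RNA quality and cell markers moved with this result. The 3'/5' ratio averaged 2.22 in AD males and 3.81 in CT males. CT animal 4, a male, had the highest erythroid and neutrophil list means, 1.77 and 1.94 log2 units above the mean of the 24 arrays, and the lowest T cell list mean, at -1.34. CT animal 3, the other male, had a platelet list mean 1.77 above. With the ratio as a covariate the difference between the sexes was 2.24 (adjusted p = 0.0314, with 109 probe sets or 0.606% called, 2 of them HSP70.2 sets). With the cell list means, which hold no neutrophil list, it was 1.46 (adjusted p = 0.519, with 2 probe sets or 0.0111% called and no member). It lay between 1.60 and 2.55 when any 1 AD or CT animal was left out. The adjusted p was then 0.0141 without CT animal 3 and 0.0379 without AD animal 1, but 0.113 without CT animal 1, 0.149 without CT animal 2, 0.0979 without CT animal 4, 0.0908 without AD animal 2, 0.0694 without AD animal 3 and 0.102 without AD animal 4.

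**Figure D2:**
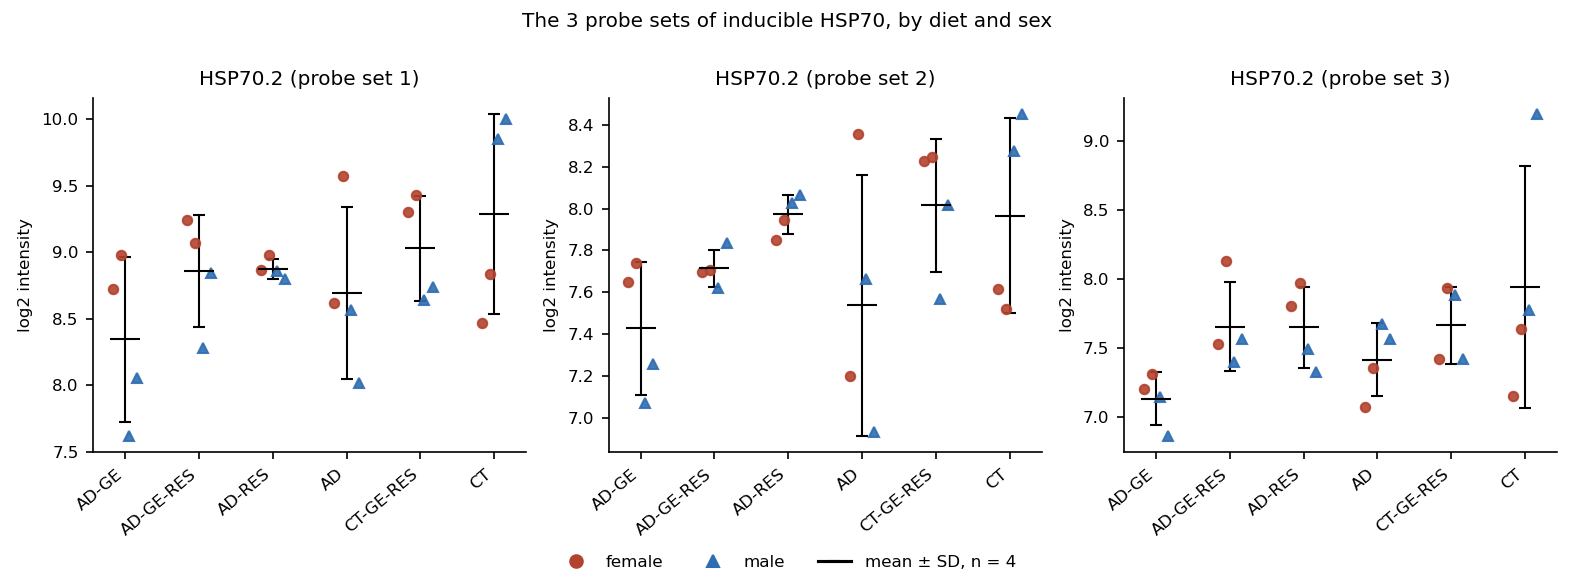
Log2 intensity of the 3 probe sets of inducible HSP70 by diet group, 1 point an animal (red circles, females; blue triangles, males), with the group mean and SD (n = 4) in black. On the first set the CT males, at 9.85 and 10.00, stand above all other animals, while in all 5 other groups the females stand above the males, in AD-RES by a narrow margin.

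The HSP110 proteins, which exchange the nucleotide of HSP70, had 3 tested probe sets. HSPH1, the heat-inducible HSP110, had 8.90, 9.0, 9.19 and 8.67 in CT-GE-RES, against 8.75, 8.54, 8.40 and 8.26 in CT, and 3 of the 4 CT-GE-RES animals lay above all CT animals. The difference was 0.45 (SE 0.17, unadjusted p = 0.015), and it was 0.23 with the cell list means as covariates. T cell markers moved in this comparison, 9 of 9 being higher in CT-GE-RES, with a median of 0.42 and an unadjusted p under 0.05 for 5. HSPA4, the constitutive HSP110, had no unadjusted p under 0.05, yet on set 2 its values of 6.80, 6.95, 6.95 and 6.15 in AD did not overlap with 7.25, 7.19, 7.21 and 7.03 in CT. On its other tested set the same difference was -0.09 (SE 0.16), against -0.46 (SE 0.26) on this one.

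Mitochondrial chaperonins and small heat shock proteins had no unadjusted p under 0.05 in any diet comparison, HSPB11 apart. HSPD1 averaged between 10.55 ± 0.06 in AD-GE and 10.87 ± 0.26 in CT-GE-RES, and its lid HSPE1 between 11.98 ± 0.24 in CT and 12.18 ± 0.10 in AD-GE-RES. HSPB1, the small heat shock protein also called HSP27, averaged 8.26 ± 0.10 for AD-GE, 8.53 ± 0.31 for AD-GE-RES, 8.30 ± 0.14 for AD-RES, 8.47 ± 0.34 for AD, 8.67 ± 0.40 for CT-GE-RES and 8.67 ± 0.40 for CT. Of the 16 animals on the atherogenic diet 12 lay below all 8 on chow for HSPB1. HSPB2, HSPB6 and HSPB7, small heat shock proteins best known from muscle, averaged below 6 in all groups. HSPB11, which carries an HSPB symbol but is a subunit of the intraflagellar transport machinery, averaged 7.02 ± 0.22 in AD-GE, 6.67 ± 0.24 in AD and 7.03 ± 0.28 in CT. Its difference was 0.35 in AD-GE against AD (SE 0.14, unadjusted p = 0.019) and -0.36 in AD against CT (SE 0.14, unadjusted p = 0.017).

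Among the DnaJ proteins of type A, which keep the full bacterial DnaJ architecture, DNAJA4 stood out by its low p in AD-GE against AD. On set 1 it had 6.33, 6.56, 6.25 and 6.55 in AD-GE, 5.42, 6.03, 6.53 and 6.07 in AD-GE-RES, 5.90, 6.25, 6.01 and 6.13 in AD-RES, 5.61, 5.92, 5.61 and 5.55 in AD, 6.19, 6.23, 6.40 and 6.16 in CT-GE-RES, and 5.92, 5.82, 6.13 and 5.88 in CT. The AD-GE and AD animals did not overlap. AD-GE averaged 6.42 ± 0.16 and AD 5.67 ± 0.17, a 0.75 log2 difference (SE 0.16, unadjusted p = 0.00012, adjusted p = 0.520). It was 0.69 in females and 0.82 in males, 0.77 with the 3'/5' ratio as a covariate, and 0.67 with the cell list means (SE 0.19).

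DNAJA4 was also among the 5 members with the lowest p where the other supplements were compared with AD. It differed by 0.34 in AD-GE-RES against AD (SE 0.16, unadjusted p = 0.044), but by -0.036 in females and 0.72 in males, and by 0.18 without AD-GE-RES animal 3 and 0.53 without AD-GE-RES animal 1. In AD-RES against AD it differed by 0.40 (SE 0.16, unadjusted p = 0.020). On chow, CT-GE-RES averaged 6.24 ± 0.11 and CT 5.94 ± 0.13, and these groups did not overlap. The second probe set of the gene, set 2, did not share these values. It had 5.39, 5.37, 5.40 and 5.57 in AD-GE, against 5.41, 5.44, 5.85 and 5.54 in AD, a difference of -0.13 (SE 0.12), so the 2 sets of DNAJA4 disagree.

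The other type A members were less apart. DNAJA1, a cytosolic partner of HSPA8, had 2 probe sets that ran differently: set 2 averaged 6.97 ± 0.20 in CT-GE-RES and 7.40 ± 0.17 in CT (difference -0.44, SE 0.18, unadjusted p = 0.021), and set 1 averaged 9.54 ± 0.26 in CT-GE-RES and 9.46 ± 0.43 in CT. DNAJA2, its close relative, averaged 9.07 ± 0.09 in CT-GE-RES and 8.77 ± 0.19 in CT (difference 0.30, SE 0.12, unadjusted p = 0.019), and 0.11 remained with the cell list means as covariates. DNAJA3, the mitochondrial type A member, averaged 7.48 ± 0.25 in AD-GE and 7.13 ± 0.28 in AD (difference 0.35, SE 0.14, unadjusted p = 0.024).

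Type B members gave the lowest p-values of AD against CT. DNAJB4, a cytosolic co-chaperone close to DNAJB1, had 6.88, 6.89, 7.11 and 7.31 in AD-GE, 7.33, 6.29, 6.84 and 7.33 in AD-GE-RES, 6.32, 6.75, 6.45 and 6.44 in AD-RES, 6.65, 6.34, 7.40 and 7.46 in AD, 5.94, 6.15, 6.58 and 6.13 in CT-GE-RES, and 6.10, 6.18, 6.33 and 6.76 in CT. The AD males lay above every CT animal and the AD females among them. The difference was 0.62 (SE 0.21, unadjusted p = 0.0066), and in AD-RES against AD it was -0.48 (SE 0.21, unadjusted p = 0.031), with 0.034 in females and -0.99 in males. The 16 animals on the atherogenic diet had a median of 6.86, against 6.17 in the 8 on chow, and 9 of the 16 lay above all 8. The AD-RES animals, at 6.32 to 6.75, all lay within the chow range. With the diets averaged over the groups without and with the resveratrol-containing extract, DNAJB4 was 0.68 higher on the atherogenic diet (SE 0.15, adjusted p = 0.287), a contrast added after the data were seen.

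Platelet markers ran against DNAJB4 in AD against CT, with 7 of 8 lower in AD at a median of -0.72. With the cell list means as covariates the DNAJB4 difference was 0.50, and with the 3'/5' ratio 0.69. DNAJB1, the canonical heat-inducible HSP40, averaged 8.81 ± 0.15 for AD-GE, 8.85 ± 0.37 for AD-GE-RES, 8.58 ± 0.24 for AD-RES, 8.91 ± 0.18 for AD, 8.70 ± 0.13 for CT-GE-RES and 8.77 ± 0.25 for CT. Its largest difference was -0.33 in AD-RES against AD (SE 0.16, unadjusted p = 0.053).

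DNAJB9, a co-chaperone of HSPA5 in the endoplasmic reticulum that is induced by the unfolded protein response, had the lowest p after DNAJB4 in AD against CT. On set 2 it had 7.13, 7.50, 8.17 and 8.11 in AD-GE, 8.14, 6.96, 7.78 and 7.97 in AD-GE-RES, 7.65, 7.11, 7.83 and 7.81 in AD-RES, 7.84, 7.46, 8.42 and 8.21 in AD, 7.54, 7.28, 7.45 and 7.32 in CT-GE-RES, and 7.21, 7.64, 7.21 and 7.45 in CT. The chow groups were narrow and the atherogenic groups wide, with 11 of the 16 animals above all 8 on chow and 3 below all 8. The difference of AD against CT was 0.60 (SE 0.22, unadjusted p = 0.012) on this set, 0.46 on set 1 (SE 0.23, unadjusted p = 0.055) and 0.38 on set 3 (SE 0.18, unadjusted p = 0.045). The 3 sets gave 1 direction, but they are not independent: their residuals after group and sex means had r between 0.25 and 0.84. On set 2 the female difference minus the male one was -0.76 (SE 0.41, unadjusted p = 0.082, adjusted p = 0.392). Set 3 also had the lowest p of the members in AD-GE-RES against AD, with 5.04, 5.01, 5.48 and 5.37 in AD-GE-RES and 5.78, 5.40, 6.14 and 5.24 in AD. These values overlapped, and the difference was -0.41 (SE 0.18, unadjusted p = 0.032), or -0.27 without AD animal 3.

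**Figure D3:**
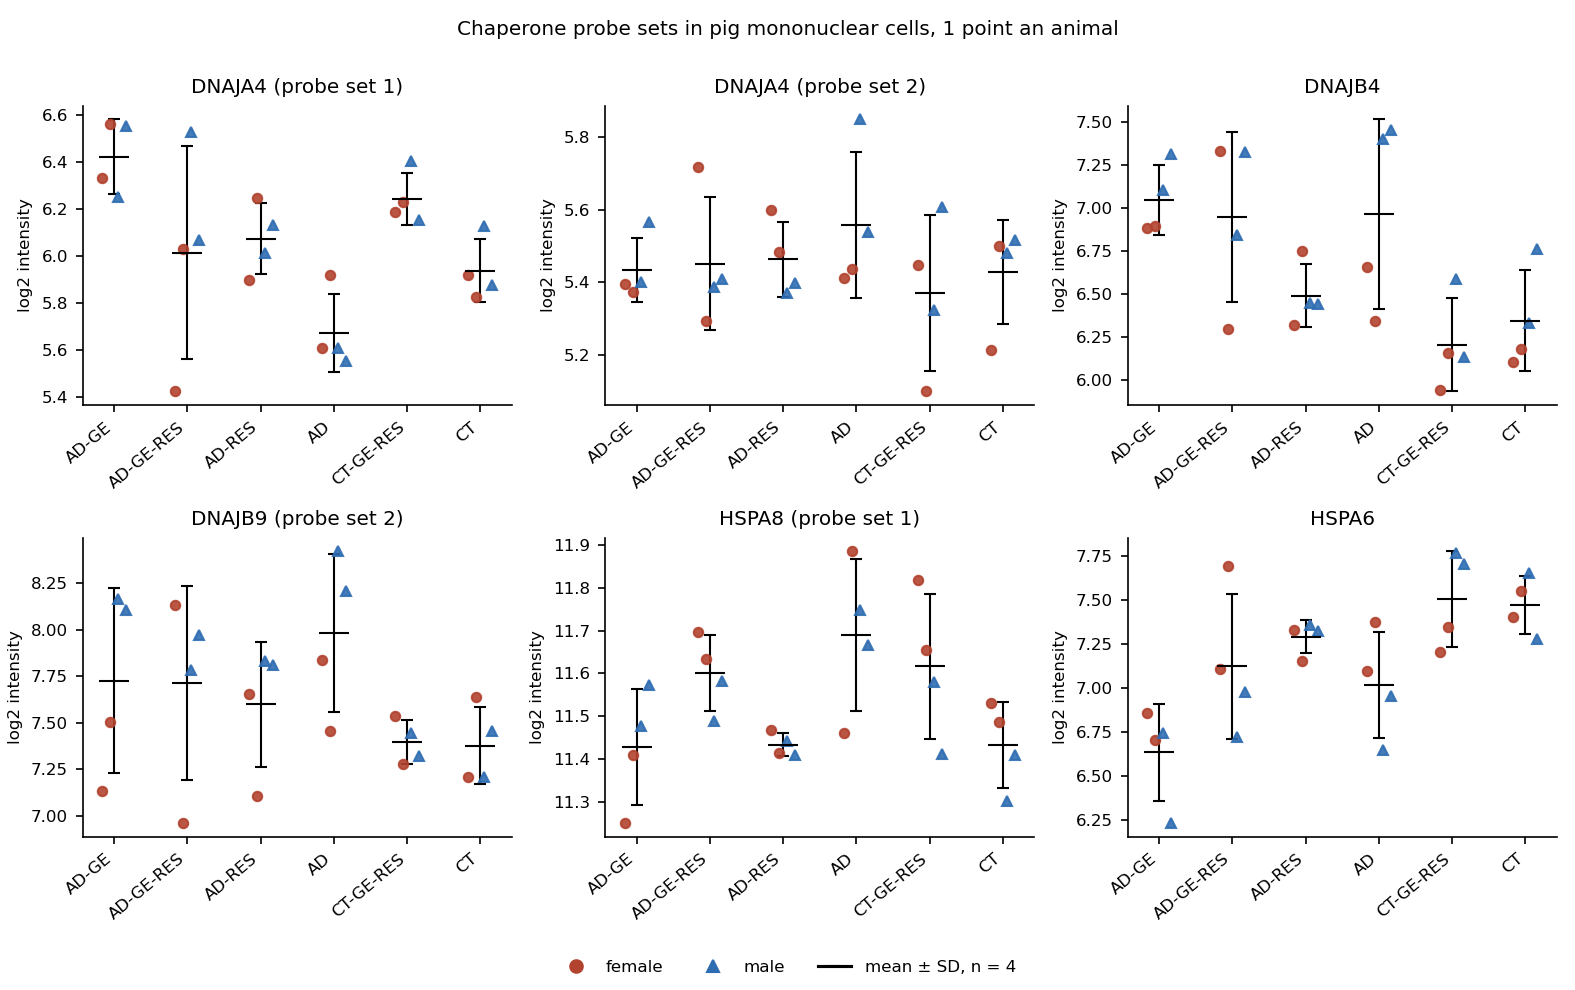
Log2 intensity of 6 chaperone probe sets by diet group, 1 point an animal (red circles, females; blue triangles, males), with the group mean and SD (n = 4) in black. DNAJA4 on its first set is higher in all 4 AD-GE animals than in any AD animal and its second set is not. DNAJB4 tends to be higher and HSPA6 lower in the atherogenic groups than in the chow groups, with overlap. AD-RES is the exception for DNAJB4, where it lies within the chow range. For HSPA6 the lowest AD-RES animal lies below the chow range and the others in its lower part.

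DNAJB11, another co-chaperone of HSPA5, had 8.36, 7.82, 7.92 and 8.07 in CT-GE-RES, against 7.49, 7.51, 7.33 and 7.63 in CT, with no overlap. The difference was 0.55 (SE 0.19, unadjusted p = 0.0095). It was 0.36 with the 3'/5' ratio as a covariate and 0.40 with the cell list means, and the ratio itself averaged 2.20 in CT-GE-RES and 3.15 in CT. DNAJB14, a DnaJ protein anchored in the membrane of the endoplasmic reticulum, had 7.84, 7.98, 7.75 and 7.79 in AD-GE, against 8.0, 8.08, 8.20 and 8.18 in AD on set 1. These did not overlap, and the difference was -0.28 (SE 0.12, unadjusted p = 0.027). Its second set gave -0.40 (SE 0.17, unadjusted p = 0.027). DNAJB2, a co-chaperone with ubiquitin-interacting motifs, averaged 7.50 ± 0.25 in AD-RES and 7.07 ± 0.19 in AD (difference 0.43, SE 0.18, unadjusted p = 0.025).

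Type C members, which share only the J domain, held 15 tested probe sets of 10 genes. DNAJC9, a co-chaperone of histones, had 4.94, 5.26, 5.18 and 5.11 in AD-GE, 4.63, 6.24, 5.23 and 5.35 in AD-GE-RES, 5.87, 5.39, 5.38 and 5.32 in AD-RES, 5.47, 5.42, 5.33 and 4.81 in AD, 6.34, 6.25, 6.65 and 5.49 in CT-GE-RES, and 5.48, 5.59, 5.86 and 6.48 in CT. The AD and CT animals did not overlap, with a difference of -0.59 (SE 0.28, unadjusted p = 0.049). Of the 16 animals on the atherogenic diet 14 lay below all 8 on chow, and the medians were 5.32 and 6.05. The share of all probe sets with such a count was not computed. Averaged over the groups without and with the resveratrol-containing extract, the difference was -0.71 (SE 0.20, adjusted p = 0.409).

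The remaining type C members had smaller differences. In AD-GE-RES against AD, 14 of the 15 type C sets were above 0, with a median of 0.07 and a highest value of 0.25 for DNAJC2, a co-chaperone of the ribosome (SE 0.12, unadjusted p = 0.051). DNAJC8 on set 1 was among the 5 members with the lowest p there, at 0.18 (SE 0.10, unadjusted p = 0.082). The ribosomal partner of DNAJC2, HSPA14, averaged 8.05 ± 0.34 in AD-GE-RES animals and 7.70 ± 0.21 in AD animals, with a difference of 0.35 (SE 0.18, unadjusted p = 0.064). DNAJC3, an HSPA5 co-chaperone that also inhibits the kinase PERK, averaged between 6.92 ± 0.26 in AD-GE and 7.17 ± 0.09 in CT-GE-RES. DNAJC19, of the mitochondrial import motor, averaged between 7.61 ± 0.23 in AD and 7.75 ± 0.06 in AD-RES.

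The effect of the resveratrol-containing extract was also compared between the diets, as the difference of AD-GE-RES against AD minus that of CT-GE-RES against CT. No member and no other probe set passed (lowest adjusted p of a member 1.00), and 1 member had an unadjusted p under 0.05, beside 3.12% of all. Between females and males 48 probe sets passed (0.267%), none of them a member, and 6 members had an unadjusted p under 0.05, beside 10.3% of all. Without weights the members with the lowest p were DNAJB4 at -0.36 (SE 0.12) and DNAJB9 at -0.36, both lower in females, and HSPA2 at 0.36, and their lowest adjusted p was 0.291. With array weights 806 probe sets passed (4.48%), DNAJB9 and DNAJC14 among them.

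Members followed the 3'/5' ratio about as often as all probe sets did. In a fit with the ratio as a term beside group and sex, 8 of the 67 members had a slope that passed, 1 positive and 7 negative. This share was near that of all probe sets, 11.5% (3.24% positive and 8.29% negative). DNAJB6, a co-chaperone that suppresses aggregation, fell by 1.19 log2 units per unit of the ratio on set 3 (SE 0.09, adjusted p = 1.2e-08). This set had 5.54, 4.94, 6.45 and 6.68 in AD-GE, where the ratio was 3.34, 2.97, 1.77 and 1.75. In CT it had 6.82, 5.09, 5.32 and 3.83, where the ratio was 1.64, 3.33, 3.24 and 4.39. High values went with low ratios within both groups. Its difference in CT-GE-RES against CT was 1.03, and -0.10 with the ratio as a covariate (SE 0.27).

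Another set of the gene, set 1, averaged between 9.56 ± 0.21 in CT and 9.84 ± 0.03 in AD-GE-RES and had a slope of -0.09 that did not pass. DNAJC8, a DnaJ protein of the spliceosome, showed the same split: set 2 fell by 0.50 per unit (SE 0.06, adjusted p = 7.6e-06), and set 1 had a slope of -0.01 that did not pass. DNAJC14 on set 2 fell by 0.32 (SE 0.06, adjusted p = 9.1e-04), HSP90AA1 on set 2 by 0.18 (SE 0.04, adjusted p = 0.0048), HSPA9 by 0.16 on set 2 and by 0.15 on set 3 (adjusted p = 0.0247 and 0.0113), and DNAJB11 by 0.20 (SE 0.06, adjusted p = 0.0257). HSP70.2 on set 3 rose by 0.31 (SE 0.09, adjusted p = 0.0229). Of the 8 slopes, 5 passed with any 1 of the 24 arrays left out, and those of HSP70.2, HSPA9 on set 2 and DNAJB11 passed in 21, 21 and 20 of the 24.

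**Figure D4:**
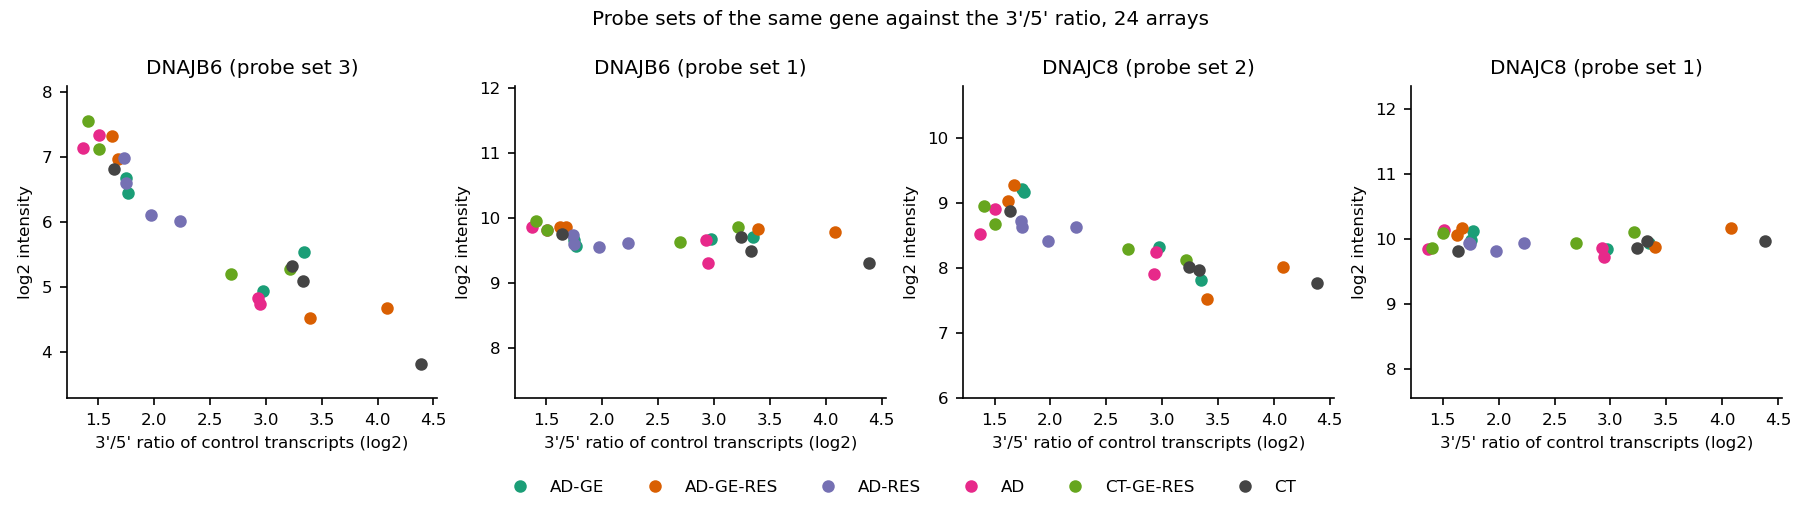
Log2 intensity of 2 probe sets each of DNAJB6 and DNAJC8 (vertical axes) against the log2 3'/5' ratio of control transcripts (horizontal axes), 1 point an array, coloured by diet group; within a gene both vertical axes span the same number of log2 units. Set 3 of DNAJB6 and set 2 of DNAJC8 fall with the ratio, by 1.19 and 0.50 log2 units per unit, and the slopes of set 1 of both genes did not pass the test.

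Members that work together were compared across the animals after the group and sex means had been removed, for 12 pairs, over 24 arrays that share 1 normalization. Pearson's r passed an adjusted permutation p of 0.05 for 5 of the 12. Removing the means left 17 residual degrees of freedom, while the permutations treated the 24 residuals as free to trade places. The permutation p-values given here are therefore too low, and a pair said to pass had only this p under 0.05. HSPA5 and its co-chaperone DNAJB9 had r = 0.70 and rho = 0.77 (adjusted permutation p = 0.0012 and 1.2e-04, the second from the smallest p that 1e+05 permutations can give), and r = 0.59 without the 2 arrays farthest from the median of HSPA5. HSPA5 and DNAJC3 had r = 0.66 and rho = 0.58 (adjusted permutation p = 0.00147 and 0.00914), and r = 0.61 without those arrays. HSP90AA1 and HSPH1, both heat shock factor targets, had r = 0.61 and rho = 0.63 (adjusted permutation p = 0.0037 and 0.00484), and r = 0.74 without the 2 farthest. With the 3'/5' ratio removed r was 0.70, 0.66 and 0.62 for these pairs, in the same order.

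Both other pairs that passed lost their call without the 2 farthest arrays. HSPD1 and HSPE1, neighbouring genes in the RefSeq annotation, had r = 0.66 and rho = 0.69 (adjusted permutation p = 0.00147 and 0.00162), but r = 0.42 without the 2 farthest arrays (adjusted permutation p = 0.0955). HSPA8 and HSPA5 had r = 0.67 and rho = 0.60 (adjusted permutation p = 0.00147 and 0.0075), but r = 0.43 without them (adjusted permutation p = 0.0955). HSPA8 and DNAJB1 passed by rho, 0.54 (adjusted permutation p = 0.0145), and not by r, 0.44 (adjusted permutation p = 0.0613), so 6 of the 12 passed by rho. HSPA5 and DNAJB11 had r = 0.31 (adjusted permutation p = 0.153), and r = 0.52 with the 3'/5' ratio removed (adjusted permutation p = 0.0186). Since these p-values are too low, the second value is not read as a pass. HSP90AA1 and DNAJA1 had r = 0.04, and HSPA5 and HSP90B1 had r = 0.41 (adjusted permutation p = 0.0699).

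**Figure D5:**
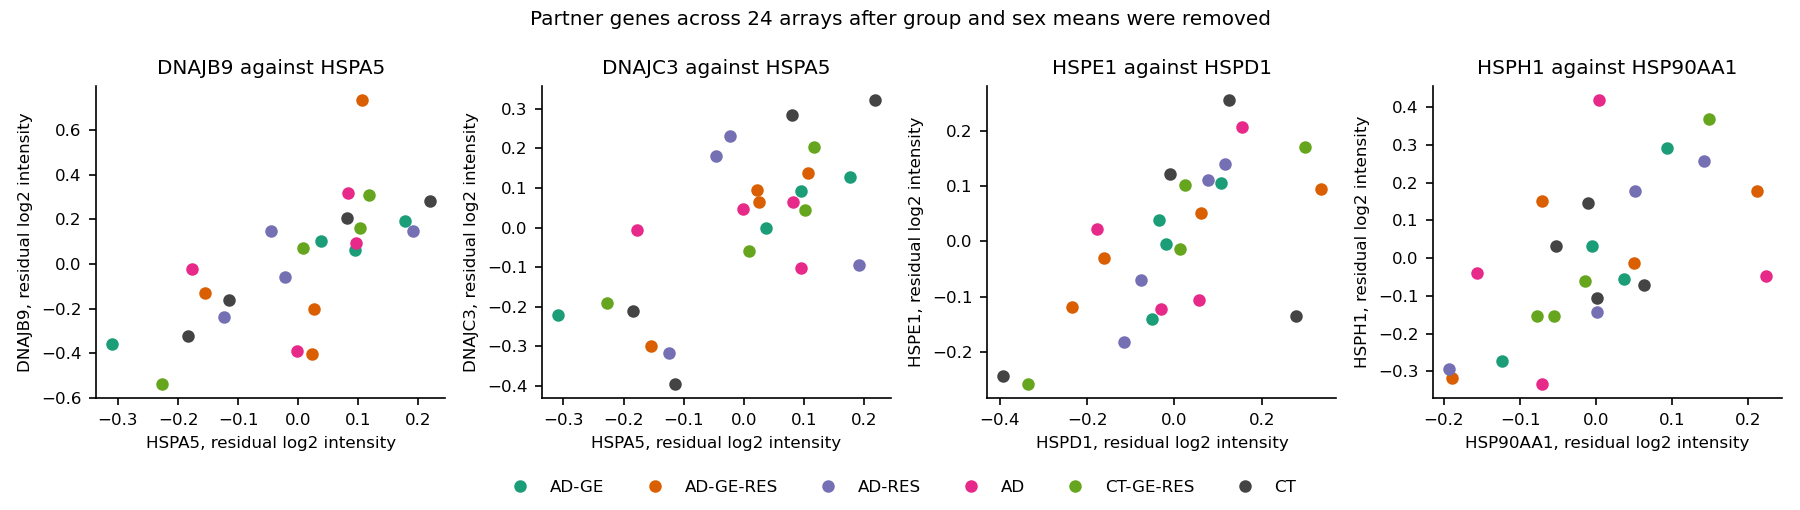
Residual log2 intensity, after group and sex means, of DNAJB9 and DNAJC3 against HSPA5, HSPE1 against HSPD1 and HSPH1 against HSP90AA1, 1 point an array, coloured by diet group. The points rise together in all 4 panels, with r = 0.70, 0.66, 0.66 and 0.61.

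Other folding factors outside the HSP and DNAJ symbols were read from 7 lists with 52 measured genes. None passed in any of the 5 comparisons, and at an unadjusted p under 0.05 stood 1 gene in AD-GE against AD, 2 in AD-GE-RES against AD, 2 in AD-RES against AD, 5 in AD against CT and 8 in CT-GE-RES against CT. The medians of the 52 differences were -0.05, 0.04, -0.03, 0.07 and 0.14, in the same order. In CT-GE-RES against CT, 41 of the 52 were above 0, and all 11 genes of the cytosolic chaperonin TRiC and prefoldin were, 4 with an unadjusted p under 0.05, such as TCP1 at 0.26. Over all probe sets 52.3% were above 0 in that comparison and 6.8% had an unadjusted p under 0.05. T cell markers were higher in 9 of 9 and the 3'/5' ratio averaged 2.20 in CT-GE-RES and 3.15 in CT, and their part in these counts was not tested. FKBP5, an immunophilin that binds HSP90 and is induced by glucocorticoids, differed by -0.53 in AD-GE against AD, -0.75 in AD-GE-RES against AD and -0.51 in AD-RES against AD. PPID, another immunophilin of the HSP90 complex, differed by 0.46 in AD-RES against AD and by -0.47 in AD against CT (SE 0.17).

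Of the 42 tested genes, 16 had more than 1 probe set. All the sets of a gene gave differences of 1 sign for 6 of the 16 in AD-GE against AD, 10 in AD-GE-RES against AD, 8 in AD-RES against AD, 7 in AD against CT and 8 in CT-GE-RES against CT. DNAJA4, DNAJA1 and HSPA9 were among the genes whose sets differed, and DNAJB9 kept 1 sign on its 3 sets in AD against CT.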

How the data were processed

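Messenger RNA of mononuclear cells from 24 pigs was measured on Affymetrix porcine arrays, 1 animal each. The authors deposited linear intensity values per probe set; RMA and GCOS are named in the submitters' processing notes, and not given in the sources used here are their versions and roles. The array medians of the deposited values were near-equal, as in values already scaled between arrays, so log2 of the intensity was used with no further normalization. Since only processed intensities were used, the number of arrays limits the precision.

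Gene symbols came from the platform annotation, which can be old. Of the 17999 probe sets tested, 8540 had 1 symbol, 168 several and 9291 none. All 46 member genes matched the RefSeq table of the Sscrofa11.1 assembly by their Entrez gene identifiers. The 124 control probe sets and the lowest 25% of the rest by mean over all arrays were left out of the tests.

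Differences were estimated with limma 3.58.1 in R 4.3.3, with 6 group means and sex in 1 fit over all 24 arrays, and two-sided p-values were adjusted by Benjamini-Hochberg over all 17999. Sex differences of an effect came from a fit of 12 diet and sex groups, with 2 animals in each. The scripts were checked on simulated data. Pairs of members were compared on residuals with 1e+05 permutations, which took no account of the degrees of freedom spent on the group and sex means. Nothing in the labels says whether animals of a group shared a pen or litter. The p-values take the animals as independent, which could not be checked, and would be too low if they were not.

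The members and lists were chosen with earlier results of these data known. Genes named with values are a fixed list of 24 central chaperones, the 5 members with the lowest p in each comparison and any member that passed a test; for the other folding lists, the 2 genes with the lowest p in each comparison. HSPA1L and DNAJC15 of the list of 24 were not matched by symbol on the array. HSPA6, DNAJC9, HSPA4 on a second set, HSP90AA1 on sets 3 and 5, HSPB2, HSPB6, HSPB7, DNAJC19 and DNAJB14 were added after their values were seen. A gene of several probe sets was represented by the one with the highest mean. Promoter and protein sequences were not analysed here.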

Additional observations from a re-analysis of the deposited data

Results flagged for a closer look

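HSP70.2 on set 1 had a difference between AD and CT that was not the same in females and males: the female difference exceeded the male one by 2.08 log2 units (adjusted p = 0.0471, limma). For CT-GE-RES against CT the same measure was 1.95 (adjusted p = 0.0416), with the same CT animals in both. The CT males also had a high 3'/5' ratio and high erythroid, neutrophil or platelet markers. The values with the ratio or the cell list means as covariates are given above. Neutrophil markers were not among these covariates.

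Single animals stood apart from the other 3 of their group in 8 of 240 groups of 4, by the gap between the extreme animal and its neighbour over the range of the group (Dixon's test); chance flags about 1 in 20 groups. HSPB1 was 9.27 in CT-GE-RES animal 4, against 8.45 to 8.49 in the others, and 9.27 in CT animal 1, against 8.46 to 8.48 in the others. HSPH1 was 9.25 in AD animal 2, with 8.50 to 8.55 in the other AD animals. HSPA5 was 11.43 in CT-GE-RES animal 4, below 11.66 to 11.69 in the others. DNAJA4 on set 1 was 5.92 in AD animal 2, and 5.55 to 5.61 in the others. DNAJA1 on set 2 was 7.79 in AD-RES animal 2 (others 7.25 to 7.33) and 7.65 in CT animal 4 (others 7.29 to 7.34). DNAJC8 on set 1 was 9.82 in AD-RES animal 4, where the others had 9.93 to 9.95.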

How the results depend on the processing

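No member passed in any of the 5 comparisons under 10 of the alternatives, among them no filter, another scaling, the 3'/5' ratio and the cell list means; the exceptions came from fits of 1 sex. Probe sets called were then 1 in females and 242 in males for AD against CT (1 member, HSP70.2), 4 in females and 7 in males for AD-RES against AD, and 122 in males for CT-GE-RES against CT (1 member, HSP70.2). Array weights gave 1 in AD-GE against AD. In the test of any group difference, array weights gave 92 (4 members: HSPA6, adjusted p = 0.0311; DNAJB4, 0.0305; DNAJA4, 0.0395; DNAJB14, 0.0395), females alone 177 (HSPA2, 0.0459) and males alone 126 (HSP70.2, 0.0249; HSPA6, 0.0398). Array weights gave 806 probe sets between the sexes, with 2 members (DNAJC14 at -0.45 and DNAJB9 at -0.42). For the sex difference of AD against CT, the ratio as a covariate gave 109 (2 members) and the cell list means 2 (0 members). The HSP70.2 value there was 1.46 with the cell list means (adjusted p = 0.519). HSPA2 in AD-GE against AD was 0.050 in males, DNAJA4 in AD-GE-RES against AD -0.036 in females, and DNAJB4 in AD-RES against AD 0.034 in females. For these changes the cause was not tested. With each animal left out, the 5 comparisons, the test of any group difference and the comparison of the extract's effect between diets stayed at 0 to 0 called; the sexes differed in 32 to 242 (members 0 to 0; 242 without AD-GE-RES animal 1), the sex difference of AD against CT in 0 to 961 (members 0 to 5; 961 without CT animal 3), and the slope on the ratio in 1374 to 2386 (members 6 to 10; 1374 without CT animal 1). No paired analysis was possible because the labels give no number that ties an animal of one diet to an animal of another. The promoter and protein search was not run.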
